A study of Mus musculus with 16 samples.

Results

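Cadherins are calcium-dependent adhesion proteins that hold neighbouring cells together by pairing with cadherins on the facing membrane. The cytoplasmic tail of a classical cadherin binds beta-catenin and p120-catenin, and through alpha-catenin it is tied to the actin skeleton. In the nervous system cadherins take part in sorting neurons and in forming synapses, and cells that leave an epithelium typically exchange Cdh1 (E-cadherin) for Cdh2 (N-cadherin). The 9 genes described here are 4 of type I (Cdh1, Cdh2, Cdh3 and Cdh4), 4 of type II (Cdh6, Cdh8, Cdh10 and Cdh11) and Cdh13 (T-cadherin), which is held in the membrane by a lipid anchor and lacks the catenin-binding tail, so that it is a cadherin but not a classical one. They were taken by gene name from the 53333 rows of the gene table and the 468583 rows of the exon table, where they have 188 exon bins, and all 9 were found. Cdh10 and Cdh11 had been chosen by their difference between RBM45 knockout (KO) and Cas9 control clones in these same libraries, so their values in that comparison are given as a description, with no test.

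RNA was read as 16 libraries of ribosome-depleted total RNA from mHiPPoE-2, a transformed line of mouse hippocampal neurons (strain Crl:CFW(SW)-024) grown in serum without treatment. The 8 lines had 2 libraries each: rescue clones m2 and m3, which carry the RBM45 knockout and F-HA-tagged RBM45_mut[delta]gRNA; RBM45 KO clones 1 and 2, made with Cas9 and a guide; control clones e1 and e4, which received Cas9 and no guide; 1 METTL3 KO clone; and the unedited wild-type (WT) line. RBM45 is an RNA-binding protein that recognises N6-methyladenosine (m6A), and METTL3 is the catalytic subunit of the enzyme that writes m6A on messenger RNA. Every line but WT was a clonal isolate, so the METTL3 KO comparison sets 1 clone against the line it came from, and nothing in the labels says that the 2 libraries of a line were separate cultures. Gene-table totals ran between 7193908 and 18751324 counts per library, and 12 genes held 53.3% to 70.6% of them. Levels below are CPM (counts scaled to a common library size) after TMM scaling, over the whole gene, introns included.

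The labels were checked on the targeted genes. Rbm45 averaged 23.1 ± 2.05 CPM in rescue, 8.04 ± 2.08 CPM in RBM45 KO and 14.7 ± 1.90 CPM in control libraries (SD, n = 4 each), and Mettl3 averaged 3.53 ± 0.254 CPM in METTL3 KO and 10.2 ± 2.03 CPM in WT (SD, n = 2 each). The neuron label had little in its defining markers: of 11 neuron genes, 8 stayed under 1 CPM in every line and Dcx, Nefl and Stmn2 were at 0 in all 16 libraries, with Map2 holding most of the list's 52.0 to 122 CPM. The 5 neural progenitor markers summed to 160 to 352 CPM over the line means, mostly Nes with Sox2 (18.6 to 47.6 CPM) and Pax6 (10.6 to 26.3 CPM), while Hes5 and Fabp7 stayed under 1 CPM. Of 10 epithelial markers, 9 stayed under 1 CPM in every line, while the 8 mesenchymal markers (vimentin, fibronectin and others) summed to between 1858 and 5288 CPM.

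The ends of the coding sequences are shown because in the classical members they encode the end of the tail, which Cdh13 lacks. A further reason is that m6A is known to be frequent near stop codons, in motifs such as GGACT. Each line gives the last 150 coding bases, stop codon included, from GENCODE transcripts on GRCm38, with every GGACT on the sense strand in capitals. The Cdh4 window is chr2:179895769-179895918 (+), that of Cdh6 chr15:13034200-13034349 (-), that of Cdh10 chr15:19013533-19013682 (+) and that of Cdh11 chr8:102634314-102634463 (-), each within 1 exon, and the Cdh13 window spans a splice junction on chromosome 8.
Cdh4: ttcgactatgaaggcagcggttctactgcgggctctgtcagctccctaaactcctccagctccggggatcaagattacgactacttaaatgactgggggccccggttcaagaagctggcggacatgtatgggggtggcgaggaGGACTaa
Cdh6: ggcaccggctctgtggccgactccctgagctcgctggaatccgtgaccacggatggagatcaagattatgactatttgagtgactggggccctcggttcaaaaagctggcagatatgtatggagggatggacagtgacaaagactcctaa
Cdh10: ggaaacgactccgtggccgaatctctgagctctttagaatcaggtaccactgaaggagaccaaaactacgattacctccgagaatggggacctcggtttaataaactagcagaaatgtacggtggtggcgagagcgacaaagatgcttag
Cdh11: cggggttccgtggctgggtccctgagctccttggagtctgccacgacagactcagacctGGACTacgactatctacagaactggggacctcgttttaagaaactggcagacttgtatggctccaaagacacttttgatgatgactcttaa
Cdh13: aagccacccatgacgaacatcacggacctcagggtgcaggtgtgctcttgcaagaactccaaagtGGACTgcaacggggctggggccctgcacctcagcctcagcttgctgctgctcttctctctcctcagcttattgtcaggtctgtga
Aligned end to end, the Cdh6 and Cdh10 windows shared 71.3% of their columns, Cdh10 and Cdh11 shared 64.4%, and Cdh4 and Cdh6 shared 62.4%. The Cdh13 window shared 48.2% with that of Cdh11 and 42.0% with that of Cdh4. Over the whole coding sequence Cdh6 and Cdh10 were the closest pair of the 9, at 71.0%, followed by Cdh8 and Cdh11 at 67.3%. GGACT occurred in the windows of Cdh1, Cdh3, Cdh4, Cdh11 and Cdh13 and not in those of Cdh6, Cdh8 and Cdh10, the Cdh2 window was not analysed here, and 16.04% of 21477 genes with a coding sequence hold it in the same window. These windows descend from common ancestors and are not independent draws, and a match of letters is not a methylated site. Promoter sequence (RefSeq, GRCm38.p6, 250 bases before to 50 after the start) was matched for 3 members, Cdh6, Cdh8 and Cdh10. None of the 3 windows holds the E-box CACCTG or CAGGTG, one being the reverse complement of the other, which 20.2% of 32851 promoters do.

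Cdh2, the N-cadherin of neural and mesenchymal cells, was by far the most abundant member. Per kilobase of exon it stood between 19.3 and 46.5 CPM over the 8 line means, against 1.89 to 3.77 for Cdh13 and 0.0487 to 4.48 for Cdh11, on the same scale. Cdh2 made up 74.1% of the summed exon level of the 9 genes in METTL3 KO and 83.7% to 90.5% in the other 7 lines. The next member by exon level was Cdh13 in 6 of the lines and Cdh11 in RBM45 KO clone 2 and rescue m3. Cdh10, Cdh6 and Cdh4 were at 0.548 CPM per kilobase of exon or lower everywhere. The levels rest on exon-bin counts, where a fragment that spans a junction is counted in each bin it touches.

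**Figure D1:**
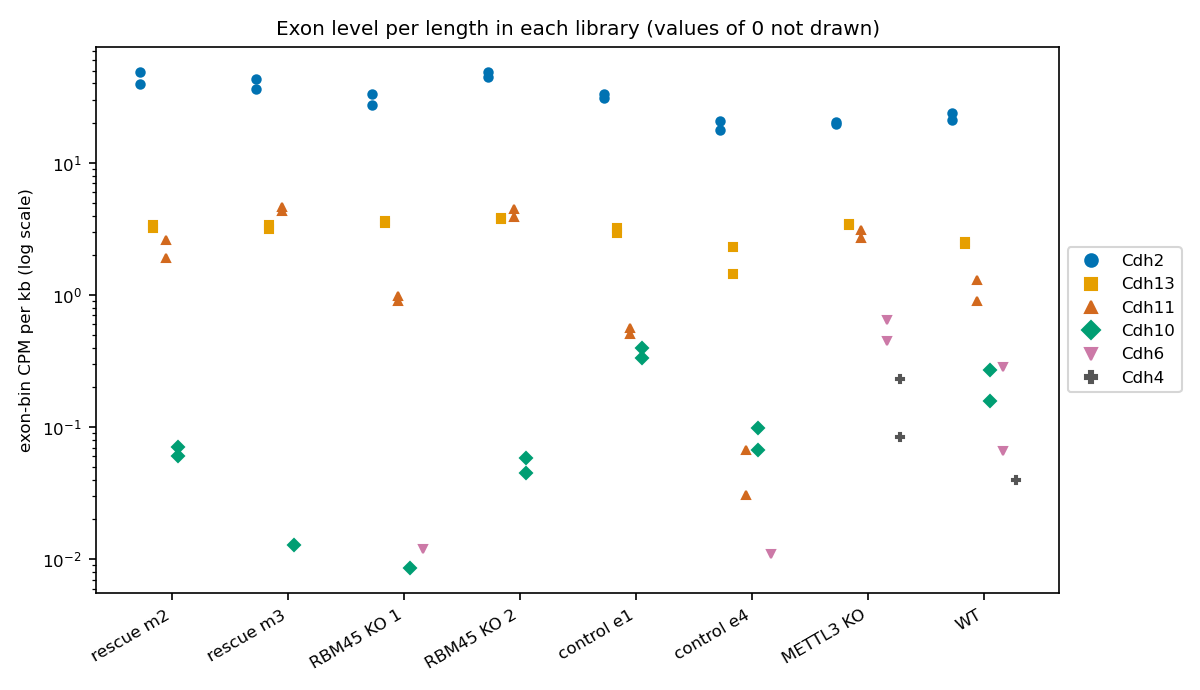
Exon-bin CPM per kilobase of exon (log scale) for 6 cadherins in each library, by line. Cdh2 lies above every other member in all 16 libraries, Cdh11 crosses Cdh13 in RBM45 KO clone 2 and rescue m3, and Cdh6 and Cdh4 are seen mainly in METTL3 KO and WT.

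Cdh1 (E-cadherin), Cdh3 (P-cadherin) and Cdh8, a type II cadherin of the brain, were at the detection limit. Cdh1 had 6 counts over all 16 libraries, Cdh3 had 2 and Cdh8 had 12, with no library above 3 counts, and no exon-bin count fell in Cdh3 or Cdh8. A floor of 3 counts corresponds to between 0.0489 CPM over the 4 rescue libraries and 0.177 CPM over the 2 WT libraries, and a lower level was not detectable at this depth. These 3 genes did not pass the filter on low counts and entered no test. Cdh4 (R-cadherin) and Cdh6 (K-cadherin) were nearly confined to the METTL3 KO and WT libraries: Cdh4 had 108 counts in METTL3 KO, 6 in WT and 10 over the 12 control, RBM45 KO and rescue libraries together, and Cdh6 had 206, 39 and 7.

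In METTL3 KO cells Cdh6 and Cdh11 were higher than in WT, while the dominant Cdh2 was not called. Cdh4 also stood higher, but it passed the filter on low counts through the METTL3 KO libraries alone and so had to differ. Cdh10 stood lower, but it met that filter in WT and in the controls and not in METTL3 KO. Both are described without a test. Of the 16223 genes tested, 22.9% were called (11.2% higher and 11.8% lower), with edgeR's quasi-likelihood test and a Benjamini-Hochberg adjusted p under 0.05. The median log2 change was 1.03 over the 6 members and 0.01 over all tested genes. The median includes Cdh4 and Cdh10 and is a description. In bulk RNA, fewer cells with a transcript and less of it per cell cannot be told apart. The spread behind these p-values is that between libraries of a line, pooled over 8 lines.

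Cdh4 had the largest positive difference. It stood at 3.71 and 4.56 CPM in the METTL3 KO libraries, against 0.719 and 0.0998 CPM in WT. The groups did not overlap, but Cdh4 passed the filter on low counts through METTL3 KO alone and so had to differ. The fitted log2 change of 3.51 (SE 0.65) is a description. As 108 counts against 6, the scaled ratio was 12.1, with an exact 95% interval of 5.36 to 33.6 for counting error only. On exon bins alone the log2 change was 3.20 (SE 1.13).

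Cdh6, whose counts met the filter in METTL3 KO and in WT, was higher by a smaller amount. It stood at 5.62 and 9.49 CPM in METTL3 KO and at 3.74 and 1.30 CPM in WT, again without overlap, for a log2 change of 1.69 (SE 0.43, adjusted p 0.0101). The call was lost without the second WT library (adjusted p 0.105), without the second METTL3 KO library (0.182), on intron bins (0.0654) and in DESeq2 (0.0505), over a range of 2.23e-06 to 0.182 in 11 alternatives. Of the genes compared with it over the 8 line means, Lifr, a cytokine receptor subunit, and Ildr2 had the most similar profile (Pearson r = 0.99 for both, of 9629 candidates), a description over 8 points in which METTL3 KO and WT stand apart from the other lines.

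Cdh11 (OB-cadherin), known from bone and mesenchymal cells, had 35.3 and 30.8 CPM in METTL3 KO, against 13.4 and 8.98 CPM in WT. All METTL3 KO values lay above the WT values, with a log2 change of 1.58 (SE 0.19, adjusted p 2.59e-05), and all 11 alternatives kept the call. Cdh10 (T2-cadherin), a type II cadherin of the brain, went the other way. It had 0 and 3 counts in the METTL3 KO libraries, or 0 and 0.183 CPM, against 4.74 and 3.09 CPM in WT. The fitted log2 change of -4.92 (SE 0.58) is a description, as Cdh10 did not meet the filter on low counts in METTL3 KO. The METTL3 KO level was 0.0314 of that in WT, with an exact 95% interval of 0.00631 to 0.0960 for counting error. Cdh2 had 219 and 238 CPM in METTL3 KO and 174 and 225 CPM in WT, with overlapping values (log2 change 0.20, SE 0.19, adjusted p 0.488). Cdh13 had 143 and 162 CPM in METTL3 KO and 99.1 and 119 CPM in WT, without overlap but short of the threshold (0.48, SE 0.28, adjusted p 0.219). On exon bins Cdh13 was called higher (0.62, adjusted p 0.0276), as it was with no filter on low counts (0.0167), over a range of 0.0167 to 0.749.

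**Figure D2:**
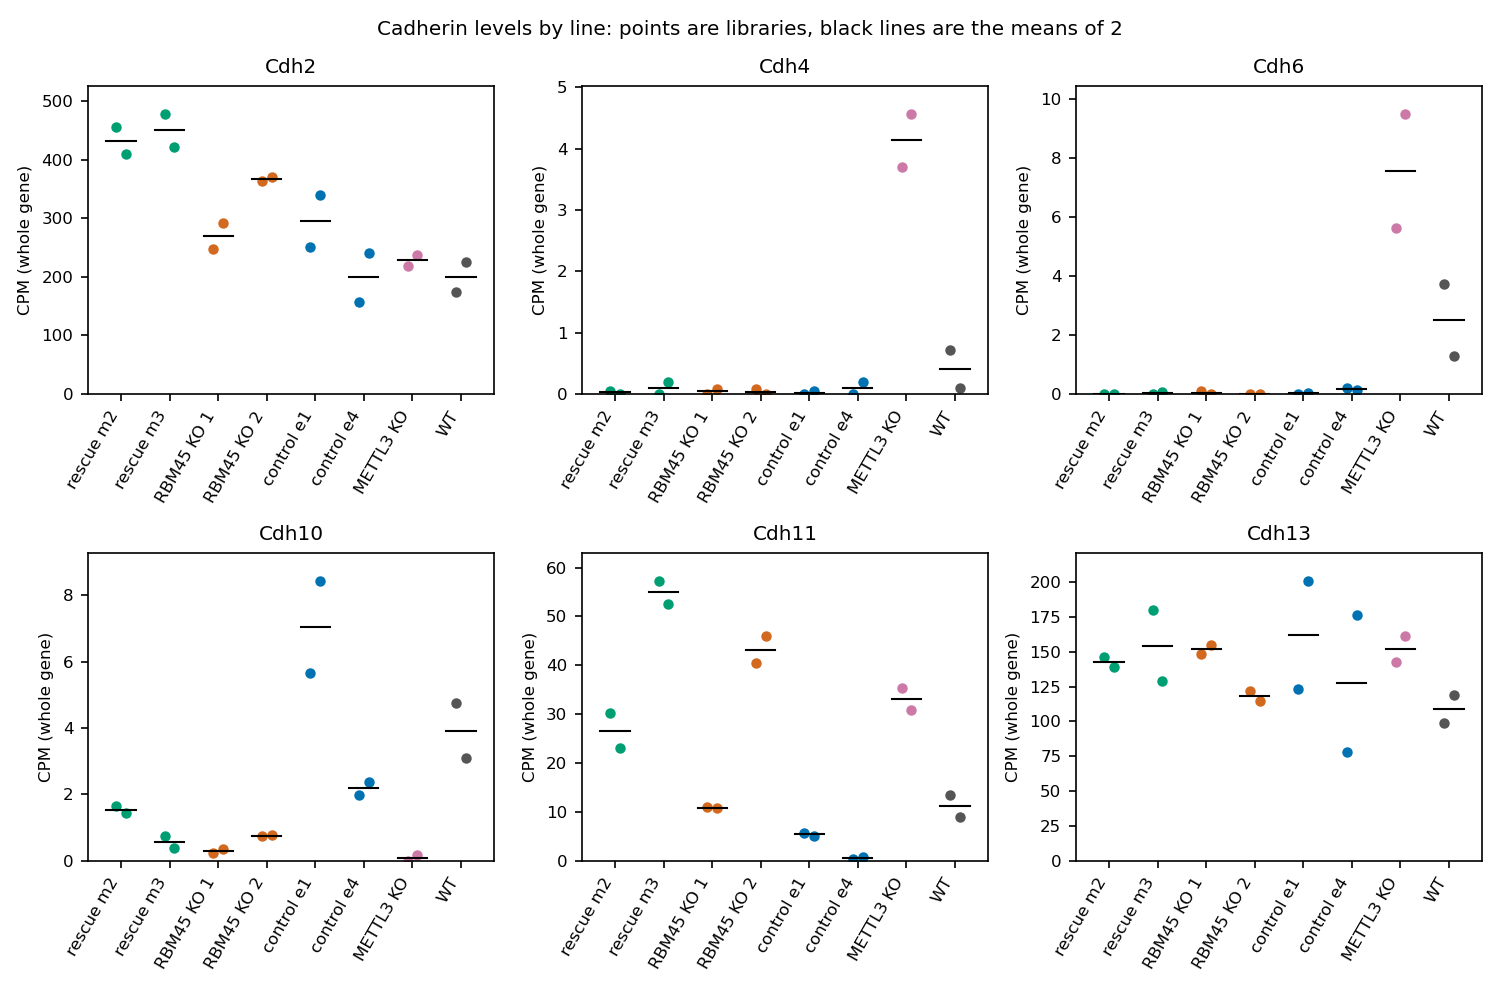
CPM over the whole gene (vertical axes, linear) for 6 cadherins in 8 lines; points are libraries and black lines are the means of 2. Cdh4 and Cdh6 are highest in METTL3 KO, Cdh10 is highest in control e1 and WT, and Cdh11 averages 55.0 CPM in rescue m3 and 0.606 CPM in control e4.

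The 2 Cas9 control clones, which received no guide, had less Cdh11 and less Cdh6 than WT. Of 16223 genes, 8.99% were called in this comparison, 3.19% higher and 5.79% lower. The controls are also the reference for the RBM45 KO and rescue clones and WT that for METTL3 KO, so these comparisons share libraries. Cdh6 had 0, 0.0522, 0.199 and 0.136 CPM in the control libraries, 5 counts in all, against 3.74 and 1.30 CPM in WT. No control library came near the WT values (log2 change -4.89, SE 0.69). Cdh6 passed the filter through METTL3 KO and WT and not through the controls, so this difference is a description, and the scaled count ratio was 0.0362 (exact 95% interval 0.0112 to 0.0920, counting error only). Cdh11 averaged 2.98 ± 2.76 CPM in controls (SD, n = 4) and 11.2 ± 3.11 CPM in WT (SD, n = 2), with a log2 change of -2.56 (SE 0.22). The control libraries are among those by which Cdh10 and Cdh11 were chosen, so for both genes this comparison is a description. Cdh10 averaged 4.62 ± 3.04 CPM in controls and 3.92 ± 1.17 CPM in WT (log2 change 0.045, SE 0.29). Cdh2 (edgeR adjusted p 0.330) and Cdh13 (0.333) were not called. Cdh13 was called higher in controls with no filter on low counts (adjusted p 0.0294) and without the first e4 library (0.0246), over a range of 0.0246 to 0.990 in 13 alternatives. Cdh4 was at or below 3 counts in each control library and had 5 and 1 counts in WT, so no change is given.

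Cdh11 differed between clones of the same genotype in all 3 genotypes that had 2 clones. Within the controls it had 0.397 and 0.814 CPM in clone e4 and 5.66 and 5.06 CPM in clone e1, a log2 change of -3.04 (SE 0.33, edgeR adjusted p 3.85e-06). Within RBM45 KO it had 40.5 and 45.9 CPM in clone 2 and 11.1 and 10.7 CPM in clone 1, a log2 change of 1.99 (SE 0.18, adjusted p 6.25e-07). Within rescue it had 57.4 and 52.6 CPM in clone m3 and 30.1 and 23.1 CPM in clone m2, a log2 change of 1.04 (SE 0.16, adjusted p 0.00125). Each of the 3 calls held in all 11 of its alternatives. Only WT and RBM45 KO clone 1 overlapped among neighbours in the order of Cdh11 levels, which ran rescue m3, RBM45 KO clone 2, METTL3 KO, rescue m2, WT, RBM45 KO clone 1, control e1 and control e4.

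The share of all 16223 genes called between clones was 19.6% in the controls (9.96% higher and 9.61% lower in e4), 14.1% in RBM45 KO (6.49% higher and 7.65% lower in clone 2) and 2.29% in rescue (0.807% higher and 1.48% lower in m3). Of the 6 cadherins that passed the filter, 3 were called between e4 and e1, 1 between RBM45 KO clones and 1 between m3 and m2. The other 2 between the controls were Cdh10 and Cdh2. Cdh10 had 1.99 and 2.37 CPM in e4 and 5.66 and 8.45 CPM in e1 (log2 change -1.68, SE 0.30, adjusted p 0.000635). Cdh2 had 157 and 241 CPM in e4 and 250 and 339 CPM in e1, without overlap (-0.56, SE 0.19, adjusted p 0.0459). That Cdh2 call was lost without the second e1 library (adjusted p 0.388), without the first e4 library (0.370) and on intron bins (0.289), and over 11 alternatives the value ran between 0.00108 and 0.388. Cdh13 was not called between the control clones (adjusted p 0.414), but was called lower in e4 on exon bins (0.0105) and without the second e4 library (0.00531), over a range of 0.00531 to 0.953. In RBM45 KO, Cdh10 had 0.754 and 0.758 CPM in clone 2 and 0.215 and 0.345 CPM in clone 1, not called (log2 change 1.37, SE 0.66, adjusted p 0.201). Cdh2 missed the threshold between the RBM45 KO clones (0.45, SE 0.19, adjusted p 0.143) and passed it on exon bins (0.62, adjusted p 0.00676; range over 11 alternatives 0.00676 to 0.488).

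**Figure D3:**
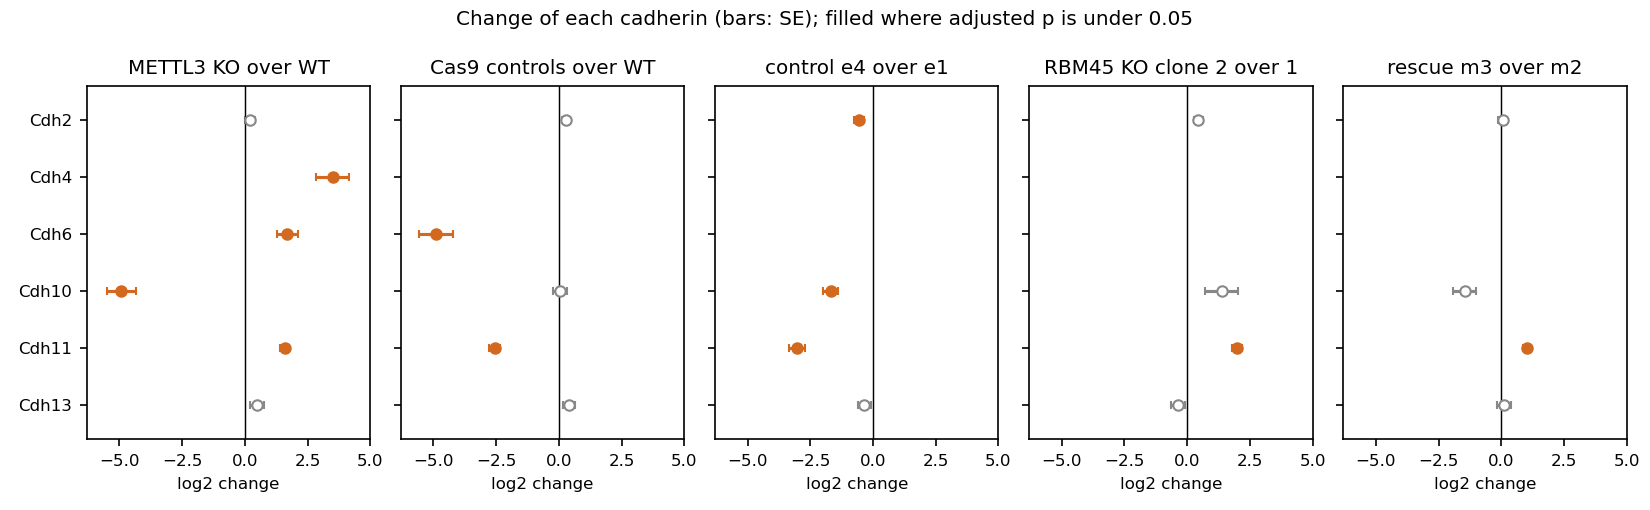
Log2 change (horizontal axes) of each cadherin in 5 comparisons with bars of 1 SE; filled points have an edgeR adjusted p under 0.05, and Cdh4 and Cdh6 are left out where their counts were near the detection limit. The points of Cdh4, of Cdh10 in METTL3 KO over WT, and of Cdh6, Cdh10 and Cdh11 in controls over WT are descriptions. A fill on these points is not read as a call. Cdh11 lies to the right of 0 in METTL3 KO over WT, RBM45 KO clone 2 over 1 and rescue m3 over m2. It lies to the left in the other 2.

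Against that spread stand the RBM45 values. With the 2 libraries of a clone added together, so that the clone is the replicate, 0 of 16867 genes (0%) were called in RBM45 KO against control, in rescue against RBM45 KO or in rescue against control. At an unadjusted p under 0.05 these comparisons held 983, 1239 and 2620 genes, and DESeq2 called 4, 39 and 456 genes, none of them a member. Only Cdh2, Cdh10, Cdh11 and Cdh13 passed the filter here. Cdh11 ran between 23.1 and 57.4 CPM in rescue (median 41.4), between 10.7 and 45.9 CPM in RBM45 KO (median 25.8) and between 0.397 and 5.66 CPM in controls (median 2.94). All 8 rescue and RBM45 KO libraries lay above all 4 controls, while WT, with 13.4 and 8.98 CPM, lay around RBM45 KO clone 1. By clone pair, the log2 change of Cdh11 over a control was 1.02 (SE 0.20) for RBM45 KO clone 1 over e1, 4.06 (SE 0.31) for clone 1 over e4, 3.01 (SE 0.19) for clone 2 over e1 and 6.05 (SE 0.27) for clone 2 over e4.

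Cdh10 had 1.65, 1.43, 0.736 and 0.384 CPM in rescue, 0.215, 0.345, 0.754 and 0.758 CPM in RBM45 KO and 5.66, 8.45, 1.99 and 2.37 CPM in controls. All rescue and RBM45 KO libraries lay below all controls, and rescue and RBM45 KO overlapped. The 4 RBM45 KO over control pairs ran between -4.58 (SE 0.45) for clone 1 over e1 and -1.53 (SE 0.42) for clone 2 over e4. Restoring RBM45 was set against RBM45 KO in a further comparison: the log2 change of rescue over RBM45 KO was 0.98 (SE 0.82) for Cdh10 and 0.58 (SE 0.91) for Cdh11. This comparison uses the RBM45 KO libraries by which both genes were chosen, so it is a description as well. The 4 clone pairs for Cdh10 ran between -0.43 (SE 0.52) for rescue m3 over RBM45 KO clone 2 and 2.40 (SE 0.56) for m2 over clone 1. For Cdh11 they ran between -0.69 (SE 0.16) for m2 over clone 2 and 2.34 (SE 0.18) for m3 over clone 1, so the direction depended on the clones.

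Cdh2 was highest in rescue, at 441 ± 31.1 CPM, against 318 ± 59.3 CPM in RBM45 KO and 247 ± 74.2 CPM in controls (SD, n = 4 libraries of 2 clones each). Every rescue library, from 410 CPM up, lay above every other library of the series on whole-gene counts. On exon bins the order differed: RBM45 KO clone 2 had 46.5 CPM per kilobase, against 44.3 in rescue m2 and 39.8 in rescue m3. The whole-gene log2 change was 0.46 over RBM45 KO (SE 0.23, adjusted p 0.674; 0.23 on exon bins) and 0.80 over controls (SE 0.23, adjusted p 0.276), so neither passed the test with clones as replicates. Cdh13 averaged 149 ± 22.1 CPM in rescue, 135 ± 19.8 CPM in RBM45 KO and 145 ± 55.1 CPM in controls, and the 3 groups overlapped. On whole-gene line means Cdh13 varied least over the 8 lines, with a highest mean 1.49 times the lowest. The ratio was 2.26 for Cdh2 and 90.8 for Cdh11. By library Cdh13 ran between 78.1 and 201 CPM, and Cdh2 between 157 and 478 CPM. On exon bins the line means of Cdh13 ran between 1.89 and 3.77 CPM per kilobase, against 19.3 to 46.5 for Cdh2.

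Cdh13 was also set apart from Cdh2 and Cdh11 by where its counts lay. Introns gave between 68.8% and 84.6% of its intron plus exon counts over the 8 lines, against 29.0% to 46.2% for Cdh2 and 33.5% to 45.0% for Cdh11. Members with few counts varied more: Cdh4 had 75.2% and Cdh6 42.8% in METTL3 KO. Cdh10 had 57.8% in control e1 and 89.2% in rescue m3, so a high share was not particular to Cdh13. The Cdh13 gene spans 1041.2 kb on chromosome 8 (118283733 to 119324921, + strand, GRCm38), of which exon bins cover 1.08%. Cdh2 spans 220.4 kb and Cdh11 153.5 kb, with 3.66% and 5.80% in exon bins. Whole-gene values of Cdh13 therefore read mostly intron, and a share of intron counts is not a measure of splicing on its own. The library kit does not keep strand, so reads of antisense genes cannot be told apart; 4 lie over Cdh13, with 212 counts in all against its own 30288.

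**Figure D4:**
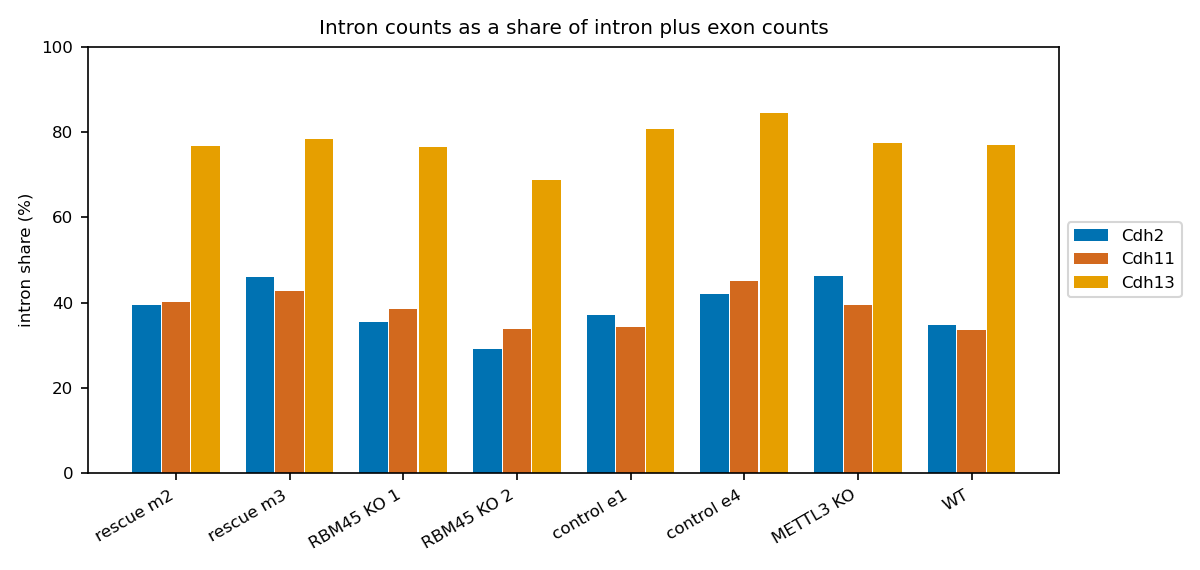
Intron counts as a percentage of intron plus exon counts (bars, mean of 2 libraries) for Cdh2, Cdh11 and Cdh13 in 8 lines. Cdh13 bars lie between 68.8% and 84.6%, above those of Cdh2 and Cdh11 in every line.

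Exon usage within the members was tested on 47 exon bins with a mean of 10 counts or more, 19 of Cdh2, 12 of Cdh11 and 16 of Cdh13, each relative to the rest of its gene. No bin was called by diffSpliceDGE of edgeR in RBM45 KO against control, with 0 bins at an unadjusted p under 0.05, where 0.00392% of all 101929 bins were called. In METTL3 KO against WT 0 of the 47 were called and 3 had an unadjusted p under 0.05, where 0.0137% of all bins were called; no other tool was run on the bins. The nearest to the threshold was a bin of 3111 bases within Cdh2 (GRCm38, 16771397 to 16774507, - strand), at 1.29 log2 units above its gene in METTL3 KO relative to WT (adjusted p 0.184). Its level was 4.95 CPM in METTL3 KO and 2.32 CPM in WT, and it was highest in rescue m3, at 9.78 CPM, and rescue m2, at 9.10 CPM.

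Among other genes of the adhesion system, lists chosen with earlier results of these data known are given by counts, to be read against the 11.2% of all genes called higher and the 11.8% called lower in METTL3 KO against WT. In METTL3 KO against WT, of 13 tested catenins and adherens junction partners 1 was higher and 4 were lower, with a median log2 change of -0.21. Of the 17 genes listed, 15 were matched by symbol. Ctnnb1 (beta-catenin) and Ctnnd1 (p120-catenin) were not matched, so neither was examined here. Jup (plakoglobin), a catenin that can take the place of beta-catenin, had 24.8 and 24.2 CPM in METTL3 KO and 48.3 and 57.8 CPM in WT (log2 change -1.12, SE 0.15, adjusted p 5.86e-05). Ctnnd2, a p120-type catenin of neurons, had 4.83 and 7.54 CPM in METTL3 KO and 23.3 and 23.2 CPM in WT (-1.86, SE 0.31, adjusted p 0.000481). Ctnna2, the neural alpha-catenin, was lower as well (-1.09, SE 0.24, adjusted p 0.00349), and Plekha7, a partner of p120-catenin, was higher (0.96, SE 0.23, adjusted p 0.0075). Cdh6 and Cdh11 were higher in the same libraries in which 3 catenin genes were lower, and a link between these changes was not tested.

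Of 9 tested genes for proteases and turnover of cadherins, 4 were higher in METTL3 KO, where 11.2% of all genes were, and 0 were lower. They included Mmp2, higher by 4.06 on the log2 scale (SE 0.45, adjusted p 1.48e-05), Cbll1, a ubiquitin ligase of E-cadherin, by 0.73, and Mmp14 by 0.54. Of 8 tested transcription regulators of cadherins, Twist2 was higher by 0.50 and Klf4 was lower, at -0.82. Among 11 tested genes of the wider cadherin superfamily 4 were higher, Dchs2 (3.34), Dchs1 (2.21), Fat4 (0.90) and Fat1 (0.73). These encode giant protocadherins of tissue polarity. Cdh17 was lower (-2.94). No line mean of Dchs2 exceeded 1.85 CPM, and Dchs2 did not enter the fits with clones as replicates. It may have passed the filter on low counts through METTL3 KO alone, as Cdh4 did. Its change is therefore a description, as is the count of 4 that includes it. Of 3 tested other classical cadherins, Cdh18 was lower (-1.84, SE 0.53, adjusted p 0.0190). Markers of mesenchymal cells moved in the same comparison, 3 of 8 higher and 4 of 8 lower, with Col1a1 at 1.71 and Tagln at -2.30. Among the markers of other cell types, 1 of 3 tested neuron genes was higher (Map2, 0.62), 1 of 3 neural progenitor genes was lower (Nes, -1.09), 1 of 2 astrocyte genes was lower (Slc1a3, -2.42), 1 of 2 endothelial genes was lower (Kdr, -2.36), and of 3 microglia genes 1 was higher (P2ry12, 2.53) and 2 were lower. P2ry12, with no line mean above 3.77 CPM, did not enter the fits with clones as replicates either. It too may have passed the filter through METTL3 KO alone, so its change is a description. No oligodendrocyte gene (of 4) or epithelial gene (of 1) was called by edgeR, and the part of these markers in the cadherin changes was not tested.

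Among the catenins and partners, Jup, Ctnna2 and Plekha7 also differed between the RBM45 KO clones. Ctnnd2 was not called there (log2 change 0.12, SE 0.25, adjusted p 0.816). Between the control clones Ctnnd2 was lower in e4 (-3.24, SE 0.31, adjusted p 9.82e-07) and Ctnna2 was higher (4.33, SE 0.37, adjusted p 2.49e-07). Jup (adjusted p 0.0762) and Plekha7 (0.630) were not called between the controls. In controls against WT, Ctnna2 (-3.03) and Plekha7 (-2.20) were lower and Jup was higher (0.82). Ctnnd2 was not called there (-0.67, adjusted p 0.108). In clone 2 over clone 1, 3 of 13 catenins and partners were higher and 2 were lower, where 6.49% of all genes were called higher and 7.65% lower. Ctnna2 had 7.46 and 7.73 CPM in clone 2 and 0.430 and 0.259 CPM in clone 1 (log2 change 4.46, SE 0.41, adjusted p 6.07e-07). Jup had 35.5 and 34.7 CPM in clone 2 and 117 and 102 CPM in clone 1 (-1.64, SE 0.14, adjusted p 3.42e-07). Plekha7 was higher in clone 2 (1.66, SE 0.26, adjusted p 0.000236), as Cdh11 was. Control e1 had 0.436 and 0.209 CPM of Ctnna2, as low as RBM45 KO clone 1. Of the transcription regulators, 1 of 8 was higher and 2 were lower in clone 2, led by Snai1, which encodes the Snail repressor of Cdh1 (-3.02, SE 0.48, adjusted p 0.000265). Other cadherins moved both ways in this pair: Fat4 (2.23) and Cdh18 (2.81) were higher in clone 2, and Dchs1 (-2.87), Clstn3 (-3.65) and Cdh24 (-0.58) were lower, 3 of the 11 tested superfamily genes and 2 of the 3 other classical cadherins. In this clone pair Col1a1 was lower by a larger amount (-4.18, SE 0.18, adjusted p 1.48e-10), and its part in the Cdh11 difference was not tested. Of 8 mesenchymal markers 1 was higher and 3 were lower in clone 2.

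**Figure D5:**
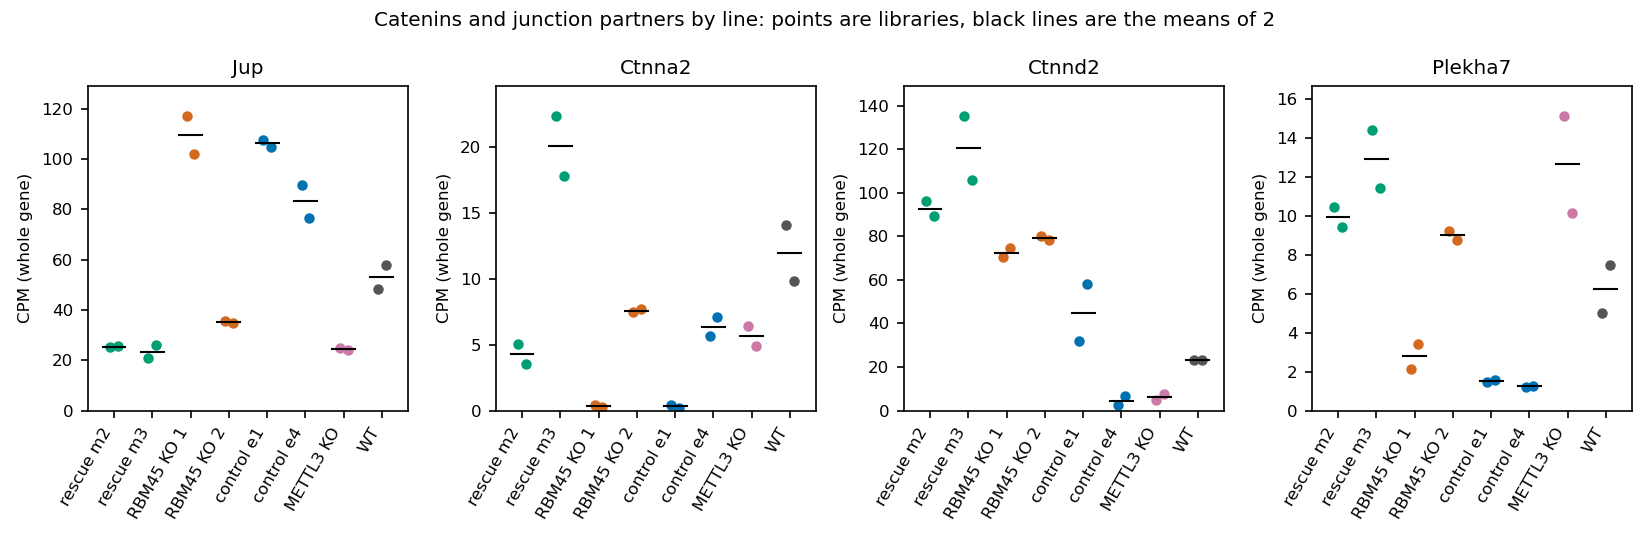
CPM (vertical axes, linear) of 4 catenins and junction partners in 8 lines; points are libraries and black lines are the means of 2. Jup is high in RBM45 KO clone 1 and both controls and lower in RBM45 KO clone 2, METTL3 KO and both rescue clones, and Ctnna2 is near 0 in RBM45 KO clone 1 and control e1.

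The genes with the most similar profile over the 8 line means were Sytl2 and Wdr37 for Cdh2 (Pearson r = 0.99 for both), Boc and Trim11 for Cdh4 (0.99 and 0.98), Psmg4 and Dnajc8 for Cdh10 (0.91 for both), Map3k1 and Btbd1 for Cdh11 (0.96 for both), and Gulp1 and Fndc3a for Cdh13 (0.99 and 0.98). The best match of Cdh10 was thus weaker than those of the other members. These are the top 2 of 9629 genes over 8 points that share libraries and scaling, given as descriptions.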

How the data were processed

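Per the file headers and the submitters' processing notes, the authors aligned with HISAT2 2.1.0 to mm10. They counted with featureCounts on flattened Ensembl 98 annotation, per gene body, exon bin and intron. Subread 1.6.3 and featureCounts 1.6.5 are both listed as versions. Each fragment was counted in every feature of which it overlaps a fraction of 0.1. Counting was on 1 strand, although the kit per the labels is non-directional. The deposited values are raw counts; 1 count column is listed under the unit other because its header could not be read. Columns were matched to samples by title; 4 columns (e1, e4) match no title and were taken as the controls because every other group was complete, and control and rescue clones are named by their columns. The members and lists were chosen with earlier results of these data known.

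Genes were fitted with edgeR 4.0.16 (R 4.3.3; TMM scaling, filterByExpr, quasi-likelihood, Benjamini-Hochberg threshold 0.05 over all genes): 6 clones with summed libraries for RBM45 (3 residual degrees of freedom), 16 libraries in 8 lines otherwise (8). Exon bins used diffSpliceDGE; coding sequences were aligned with Biopython 1.88. All 9 members were named, with list genes called in METTL3 KO against WT or between RBM45 KO clones, at most 4 a list (1 such gene is not reported here), and for each tested member the 2 most similar genes of at least 2 CPM (log2, prior count 2). Scripts were tested on simulated data. Alternatives were other scaling, DESeq2 1.42.0, no filter, exon or intron bins, leaving out abundant genes, and leaving out libraries or clones. Intervals cover counting error only.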

Additional observations from a re-analysis of the deposited data

How the results depend on the processing

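Over the 419 recomputed member changes, 371 kept their direction and their side of the threshold, 8 lost a call, 16 gained one and 24 changed sign; none of the 24 was called in the main fits. With single libraries as units in place of clones, 2 members were called in RBM45 KO against control. In rescue against RBM45 KO 2 were called and in rescue against control 3, while the clone as unit called 0 in each. Of all 16223 genes, 2512, 2919 and 5565 were called in those 3 comparisons. Those p-values measure libraries, not clones. The calls include Cdh10 and Cdh11, which were chosen from these libraries, so they are a description. Without the low-count filter 2 members were called between RBM45 KO clones and 2 between m3 and m2, where 2468 and 632 of 31806 genes were. Exon bins gave 2 between the RBM45 KO clones, where 2051 of 15031 genes were called. Each main fit gave 1, and the cause was not tested.

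Sign changes on exon bins were 0.51 for Cdh13 in RBM45 KO against control, -0.070 in rescue against RBM45 KO, 0.44 in rescue against control (0.045 with single libraries) and 0.087 between RBM45 KO clones, -0.013 for Cdh2 in METTL3 KO against WT and -0.13 between rescue clones, and -0.24 for Cdh10 in controls against WT. On intron bins they were -0.090 for Cdh13 in rescue against RBM45 KO and -0.10 for Cdh10 in controls against WT. Leaving out 1 clone or library at a time, Cdh13 ran between -0.35 and 0.014 in RBM45 KO against control, -0.051 and 0.31 in rescue against RBM45 KO, -0.16 and 0.12 in rescue against control, -1.05 and 0.12 between controls and -0.15 and 0.33 between rescue clones. Cdh11 ran between -0.10 and 1.90 in rescue against RBM45 KO, Cdh10 between -0.26 and 0.36 in controls against WT, and Cdh2 between -0.036 and 0.14 between rescue clones.

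Same-numbered deviations correlated at 0.121 between METTL3 KO and WT, 0.365 between the control clones, 0.141 between RBM45 KO clones and 0.00356 between m3 and m2, within -0.225 to 0.365 over all pairs of lines. The labels do not say what a number marks, and the numbers were not taken as pairs. With the number as a replicate block, 4 members were called in METTL3 KO against WT and 2 in controls against WT. Between control, RBM45 KO and rescue clones 3, 1 and 1 were called. Of all 16223 genes, 4005, 1745, 3420, 2435 and 417 were called in those comparisons, in that order. The member counts include members described above without a test. No exon bin of a member was called under any bin minimum tried (5, 10 or 30 counts) or with a library left out. Depth limits Cdh1, Cdh3 and Cdh8, and Cdh4 and Cdh6 outside METTL3 KO and WT.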
